A study of Mus musculus with 16 samples.

Results

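The collagen genes were followed across brain tissue of mice of both genotypes and both ages. They were taken as every protein-coding gene whose mouse symbol reads Col, a number, the letter a and a number, which gave 44 genes among the 39179 gene identifiers of the table. These were 11 genes for fibrillar collagens, 6 for the basement membrane collagen IV (Col4a1 to Col4a6) and 27 for other types. RNA of 16 mice was sequenced, 4 mice in each of 4 groups, namely wild-type mice at 3 months, V338Y mice at 3 months, wild-type mice at 19 months and V338Y mice at 19 months. V338Y mice carry, in homozygous form, an exchange of 1 amino acid in MRPS5, which belongs to the small mitoribosomal subunit, and the exchange makes mitochondria misread codons more often. The controls were wild-type at this gene, and the labels name no treatment. The labels call the tissue brain and the study's methods call it cortex, and the extract protocol of the labels speaks of muscle. Whether the mice of a group were littermates is not given, so p-values measure the spread between these 4 mice a group.

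Total counts ranged from 6181448 to 19601664 per mouse. The transcript of the altered gene, Mrps5, stood at 34.4 to 41.7 CPM (counts scaled to a common library size by TMM, the trimmed mean of M values) at 3 months and at 28.0 to 32.1 CPM at 19 months, and since the exchange leaves the transcript in place this does not check the genotype. All 10 cortex markers were above 3 counts in at least 1 mouse of every group. The Y-linked transcript Ddx3y stood at 96.7 to 128 CPM in the 8 mice of 3 months and at 0 in the 8 mice of 19 months, while Xist was at 0.443 to 1.19 CPM at 3 months and at 705 to 1182 CPM at 19 months. The study's methods give all mice as female, and these transcripts go against that at 3 months, so age and the sex-linked difference cannot be told apart in any value below. The 10 cerebellum markers summed to 744 to 2062 CPM in 7 of the 8 mice of 3 months, to 114 CPM in the 3-month V338Y mouse 14 and to 102 to 120 CPM in all mice of 19 months, so age and cerebellum content cannot be told apart either. In 19-month wild-type mice 2 of the 10 were at or under 3 counts in every mouse. The 12 choroid plexus markers summed to 3350 and 3710 CPM in the 19-month V338Y mice 17 and 18 and to 594 and 724 CPM in mice 19 and 20 of the same group. Calls with age in V338Y mice that were lost without mice 17 and 18, or with mouse 14 as the only 3-month mouse, are named with their values where they occur. A fit with 1 mouse in an arm takes its spread from the 19-month mice and assumes that the lone mouse varies like them.

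Collagens are secreted proteins in which chains wind into a triple helix. Fibrillar collagens such as type I and type III form the cables of connective tissue, which in the brain is largely found in the meninges and around larger vessels, while collagen IV forms the sheet under endothelium and around pericytes that helps seal brain capillaries. Other types sit on fibrils, form beaded filaments or span cell membranes, and some of these, such as types XIX and XXV, are made by neurons. In bulk tissue, a change in the share of cells that make a collagen and a change in its RNA per cell cannot be told apart.

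Sequence around the start of 4 collagen genes is shown because these genes carried the main age results, namely the joint start of Col4a1 and Col4a2, and the starts of Col1a2 and Col3a1, which rose, and of Col7a1, which fell. Each window holds 250 bases before and 50 after the RefSeq start in the build GRCm38.p6, on the plus strand, and 35 of the 44 genes had such a window. The Col4a2 window lies at chr8:11312555-11312854, the Col1a2 window at chr6:4505368-4505667, the Col3a1 window at chr1:45311288-45311587 and the Col7a1 window at chr9:108953336-108953635. Capitals mark the motif CCAAT (reverse form ATTGG), the motif TATAAA (reverse form TTTATA) and the motif GGGCGG (reverse form CCGCCC), and none of these matches overlapped in the windows shown.
Col4a2: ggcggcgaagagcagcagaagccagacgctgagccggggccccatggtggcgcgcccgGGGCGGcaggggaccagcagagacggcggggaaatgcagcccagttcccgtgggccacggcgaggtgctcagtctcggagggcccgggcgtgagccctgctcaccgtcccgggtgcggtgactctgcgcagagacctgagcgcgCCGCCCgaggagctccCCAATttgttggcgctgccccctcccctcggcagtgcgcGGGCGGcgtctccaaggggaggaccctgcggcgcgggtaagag
Col1a2: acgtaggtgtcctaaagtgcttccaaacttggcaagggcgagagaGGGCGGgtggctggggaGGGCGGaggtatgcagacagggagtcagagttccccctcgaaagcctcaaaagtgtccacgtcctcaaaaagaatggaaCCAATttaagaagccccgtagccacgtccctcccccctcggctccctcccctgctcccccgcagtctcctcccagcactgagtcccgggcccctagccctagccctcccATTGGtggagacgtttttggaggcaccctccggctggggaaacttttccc
Col3a1: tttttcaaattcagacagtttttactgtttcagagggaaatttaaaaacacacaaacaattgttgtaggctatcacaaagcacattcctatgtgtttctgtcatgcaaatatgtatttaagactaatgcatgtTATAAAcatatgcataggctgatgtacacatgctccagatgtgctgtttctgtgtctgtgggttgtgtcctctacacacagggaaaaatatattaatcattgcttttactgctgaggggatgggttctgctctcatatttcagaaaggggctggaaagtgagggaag
Col7a1: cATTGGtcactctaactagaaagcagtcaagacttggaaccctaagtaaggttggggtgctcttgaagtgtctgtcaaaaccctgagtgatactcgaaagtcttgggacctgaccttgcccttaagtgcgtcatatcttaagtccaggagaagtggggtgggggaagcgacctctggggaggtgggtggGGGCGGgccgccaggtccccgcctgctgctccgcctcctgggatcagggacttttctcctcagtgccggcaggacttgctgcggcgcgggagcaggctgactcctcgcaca
Col4a1 lies on the minus strand at chr8:11198423-11312826 and Col4a2 on the plus strand at chr8:11312805-11449287, so that the genes overlap by 22 bases head to head and the start of Col4a1 lies inside the window shown. GGGCGG was found in 22 of the 35 collagen windows (62.9%) and in 35.7% of all 32851 windows of that length, CCAAT in 12 (34.3%, against 37.4% of all) and TATAAA in 5 (14.3%, against 13.6%). The Col3a1 window, whose gene spans chr1:45311538-45349706, held TATAAA and neither of the other motifs. The RefSeq start of Col1a2 lies 804 bases inside the annotated 5′ end of the gene. A match only says that these letters occur.

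Comparing genes with each other requires a level per length, so CPM were divided by the union of the exons of each gene in kilobases. At 3 months, Col6a1, a chain of the beaded filament collagen VI, ranked first with 9.80 CPM per kilobase in wild-type and 9.96 in V338Y mice. Col4a1 followed with 7.68 and 7.22, then Col4a2 with 6.17 and 6.44, and Col25a1, a membrane-spanning collagen of neurons, with 5.50 and 5.56 CPM per kilobase. At 19 months Col4a1 ranked first with 16.8 CPM per kilobase in wild-type and 16.5 in V338Y mice, ahead of Col4a2 with 11.1 and 10.5 and Col6a1 with 10.6 and 10.1. Most neighbours in this order did not differ beyond their spread: of 43 neighbouring pairs, the ranges over 4 mice overlapped in 39 to 43 pairs a group. With the mean transcript length in place of the union of exons, Col4a1 came first at 3 months too, and 8 of the 10 highest genes were shared in every group.

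The first comparison asked which collagens changed between 3 and 19 months in wild-type mice. Of the 43 collagen genes with enough counts, 25 were higher and 4 lower at 19 months (edgeR quasi-likelihood test, adjusted p under 0.05), and 14 were not called. Among all genes tested, 62.8% were called, 31.4% as higher and 31.5% as lower, so the share of collagens called (67.4%) was near that of all genes. By direction, 58.1% of collagens were called higher and 9.30% lower. The median log2 fold change was 0.56 over collagens and -0.005 over all genes. The ages did not overlap in 19 collagens on the higher side, against 27.6% of all genes, and in 4 on the lower side, against 27.7%. In V338Y mice 20 collagens were higher and 5 lower, against 48.8% of all genes called, 23.1% as higher and 25.7% as lower, with a collagen median of 0.57 and an all-gene median of -0.03. The ages of V338Y mice did not overlap in 21 collagens on the higher side and 4 on the lower side, against 21.5% and 23.2% of all genes. Both genotypes shared 19 higher and 4 lower genes, each with its own control mice. The share of all genes called the same way in both genotypes was not computed. Both contrasts also carry the sex-linked and cerebellum differences between the ages, so the overlap is given as a description only. The summed level of all collagens was 545 to 601 CPM in 3-month and 784 to 849 CPM in 19-month wild-type mice, and 529 to 645 and 761 to 892 CPM in V338Y mice.

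**Figure D1:**
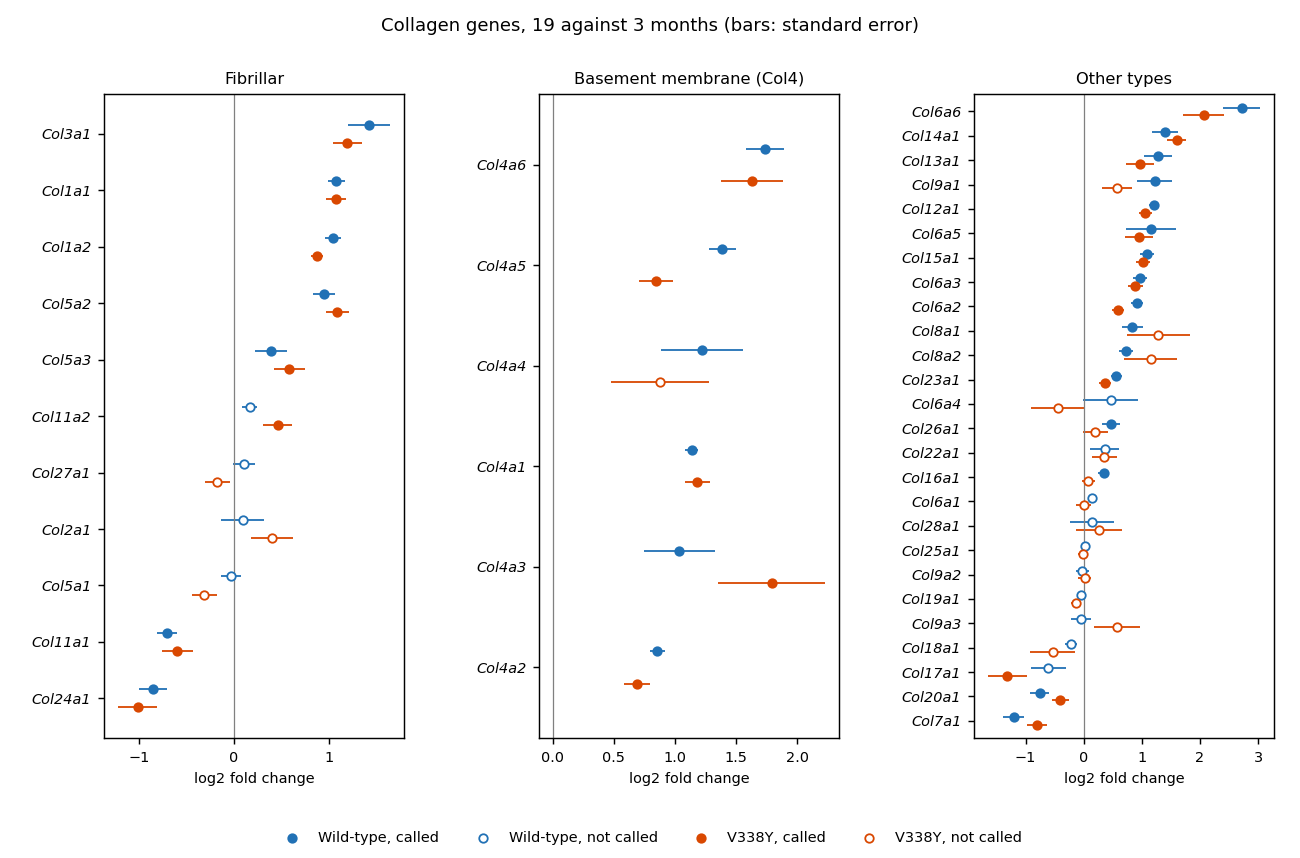
Log2 fold change of 43 collagen genes between 3 and 19 months in wild-type mice (blue) and V338Y mice (orange), in 3 panels by type, with standard errors as bars and filled points for an adjusted p under 0.05. All 6 collagen IV genes lie to the right of 0 in both genotypes, while 4 genes (Col7a1, Col11a1, Col20a1 and Col24a1) are called to the left of 0 in both.

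Every collagen IV gene was higher at 19 months in wild-type mice, with a median log2 fold change of 1.18, and 5 of 6 were in V338Y mice, with a median of 1.03. Col4a1 and Col4a2 encode the chains found in nearly all basement membranes. Col4a1 stood at 60.9, 60.3, 53.2 and 55.1 CPM in 3-month wild-type mice and at 123, 122, 129 and 128 CPM at 19 months. Among V338Y mice its values were 57.4, 66.3, 44.2 and 47.6 CPM at 3 months and 122, 120, 127 and 124 CPM at 19 months. The ages did not overlap in either genotype, and the 8 mice of 19 months lay within 120 to 129 CPM. The log2 fold change was 1.14 (SE 0.05, adjusted p = 6.17e-18) in wild-type and 1.18 (SE 0.10, adjusted p = 3.68e-06) in V338Y mice. Col4a2 stood at 42.1, 42.8, 41.7 and 36.8 CPM in 3-month and at 70, 78.1, 74.5 and 70.6 CPM in 19-month wild-type mice. In V338Y mice its values were 36.1, 54.7, 39.1 and 40.7 CPM, then 66.7, 69.6, 69.2 and 71.4 CPM. Mouse 14 was the highest of the 3-month V338Y mice for both genes and still below every 19-month mouse. The log2 fold change of Col4a2 was 0.86 (SE 0.06) in wild-type and 0.69 (SE 0.11) in V338Y mice, and both were called.

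The chains Col4a3, Col4a4, Col4a5 and Col4a6 form collagen IV networks that replace the common chains in particular basement membranes, such as that of the kidney filter. Col4a5 and Col4a6 lie head to head on chromosome X, 1308 bases apart, and the ages differed in sex-linked transcripts. Col4a6 was among the 3 largest rises in both genotypes. It stood at 4.19, 3.11, 3.01 and 2.15 CPM in 3-month and at 9.99, 9.51, 10.9 and 9.97 CPM in 19-month wild-type mice (log2 fold change 1.73, SE 0.16). The V338Y mice had 4.72, 2.01, 1.69 and 3.45 CPM, then 8.88, 10.9, 8.82 and 8.26 CPM (1.63, SE 0.26), and no 3-month mouse of either genotype reached a 19-month mouse. Col4a5 had log2 fold changes of 1.39 (SE 0.11) in wild-type and 0.84 (SE 0.14) in V338Y mice. Col4a3 and Col4a4, head to head with 71 bases between them, were low throughout. Col4a3 in V338Y mice, another of the 3 largest rises, stood at 0.638, 0.554, 1.19 and 1.01 CPM at 3 months and at 3.93, 4.79, 1.31 and 2.02 CPM at 19 months (1.79, SE 0.44, adjusted p = 0.00671). The upper pair were mice 17 and 18, and without them the log2 fold change was 0.98 (adjusted p = 0.0705). With mouse 14 as the only 3-month mouse it was 2.36 (adjusted p = 0.16). Col4a3 in 3-month wild-type mice stood at 1.72, 0.925, 1.15 and 1.2 CPM, and at 2.58, 3.06, 1.19 and 3.04 CPM at 19 months (1.04, SE 0.29), so that these groups overlapped. Col4a4 had a log2 fold change of 1.22 (SE 0.34) in wild-type mice and of 0.88 in V338Y mice, where it was not called (adjusted p = 0.0885). Collagen IV genes held 19.5% ± 0.65 (SD, n = 4) of all collagen counts in 3-month wild-type mice and 28.5% ± 1.21 at 19 months, and 19.1% ± 0.99 and 27.3% ± 1.86 in V338Y mice.

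Among fibrillar collagens 5 of 11 rose and 2 fell in wild-type mice, and 6 rose and 2 fell in V338Y mice. The share of fibrillar genes called was 63.6% and 72.7%, against 62.8% and 48.8% of all genes. The genes that rose in both were Col1a1 and Col1a2, which encode the chains of collagen I, Col3a1, the single chain of collagen III, and Col5a2 and Col5a3, which encode chains of collagen V, a regulator of fibril width. Col1a1, at chr11:94936224-94953042, stood at 14.8, 12.3, 11.7 and 13.1 CPM in 3-month wild-type mice and at 25.9, 28.6, 28.0 and 24.5 CPM at 19 months. V338Y mice showed 14.3, 18.4, 15.6 and 12.2 CPM and then 31.9, 30.9, 31.7 and 33.4 CPM. It was thus higher in every 19-month mouse than in any 3-month mouse, by 1.08 on the log2 scale (SE 0.09) in wild-type and 1.07 (SE 0.11) in V338Y mice. Col1a2, at chr6:4504814-4541544, stood at 33.8, 23.7, 29.5 and 32.8 CPM in 3-month and at 59.1, 64.7, 57.8 and 58.8 CPM in 19-month wild-type mice (1.04, SE 0.08). Its V338Y values were 29.3, 30.5, 30.2 and 28.6 CPM, then 58.7, 52.9, 55.7 and 51.5 CPM (0.87, SE 0.06). This was the call with the lowest adjusted p among collagens in V338Y mice (2.82e-07). Col3a1 stood at 9.86, 5.02, 5.41 and 6.97 CPM in 3-month and at 17.3, 22.4, 14.6 and 14 CPM in 19-month wild-type mice (1.42, SE 0.22). In V338Y mice it stood at 10.2, 7.81, 6.67 and 7.13 CPM, then at 23.5, 17.2, 17.7 and 15.4 CPM (1.19, SE 0.15). The ages did not overlap in Col1a2 or Col3a1 in either genotype. Col5a3 was near the threshold in wild-type mice (0.39, adjusted p = 0.0465) and lost its call in 9 of the alternatives tried. In V338Y mice it was called (0.58), but not without mice 17 and 18 (0.54, adjusted p = 0.0797).

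**Figure D2:**
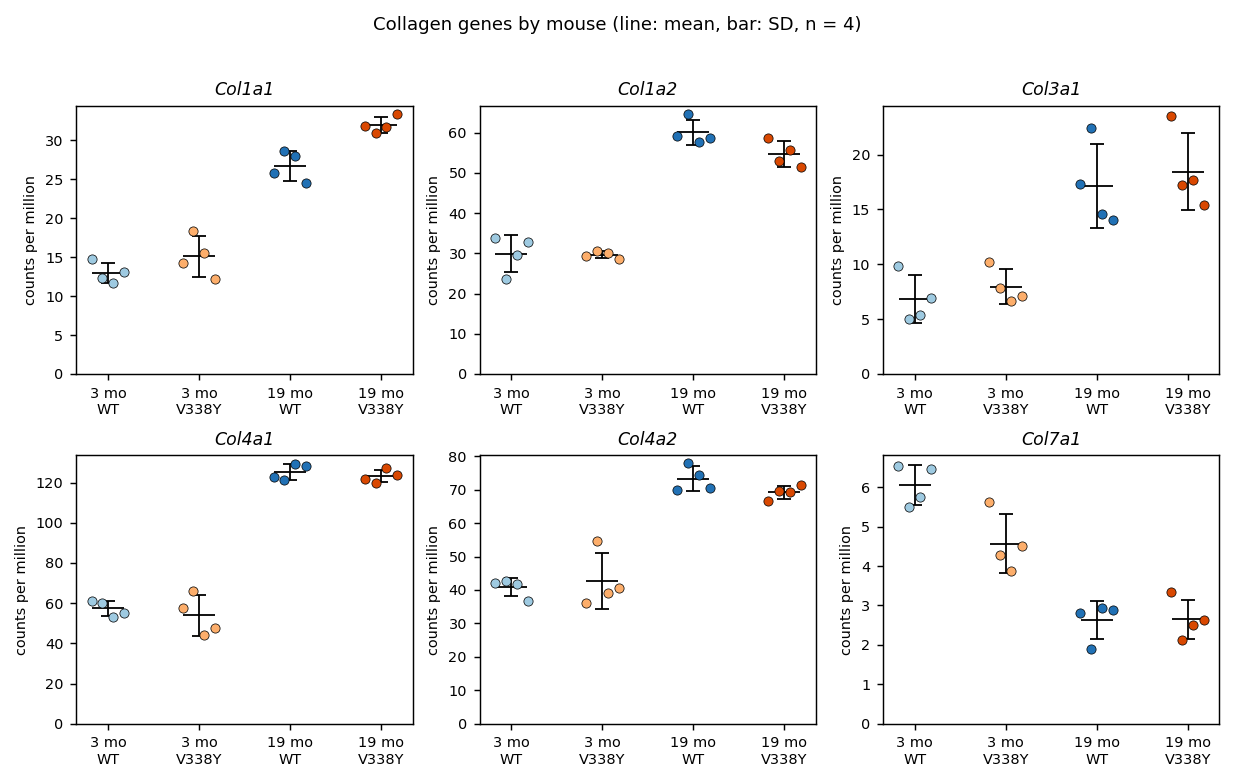
CPM of 6 collagen genes in each of 16 mice (points), with the mean as a line and the SD as a bar for the 4 mice of each group. Col1a1, Col1a2, Col3a1, Col4a1 and Col4a2 sit higher in every 19-month mouse than in any 3-month mouse of the same genotype, and Col7a1 sits lower.

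Other fibrillar genes fell or were not called. Col24a1 and Col11a1, minor fibrillar chains, were lower at 19 months in both genotypes. Col24a1, at chr3:145292472-145552011, stood at 8.87, 8.40, 7.18 and 8.60 CPM in 3-month and at 5.32, 3.72, 5.20 and 3.55 CPM in 19-month wild-type mice (log2 fold change -0.85, SE 0.15). In V338Y mice it stood at 6.06, 9.12, 4.85 and 5.88 CPM, then at 4.34, 3.53, 2.71 and 2.69 CPM (-1.01, SE 0.21). The groups did not overlap. Col11a1 had log2 fold changes of -0.70 (SE 0.11) and -0.60 (SE 0.16), whereas its partner chain Col11a2 had 0.17 (SE 0.08, not called) in wild-type and 0.46 (SE 0.15, adjusted p = 0.0321) in V338Y mice. The Col11a2 call was lost in 9 of 18 alternatives, with an adjusted p of 0.144 without mice 17 and 18, and a log2 fold change of 0.18 (adjusted p = 0.108) with mouse 14 as the only 3-month mouse. Col2a1, Col5a1 and Col27a1 were called in neither genotype, but some alternatives called them in V338Y mice. Col5a1 was called lower by library size only (-0.37, adjusted p = 0.0349), with GC content and length trends removed (-0.44, 0.0129) and without the 3-month mouse 16 (-0.41, 0.00886). Col27a1 was called lower with these trends removed (-0.32, 0.0308) and without mouse 14 (-0.28, 0.0492). The all-gene median in V338Y mice was -0.0878 by library size only and -0.105 with the trends removed. Col2a1 was called higher without the 3-month mouse 13 (0.64, 0.0236).

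Of the 26 other collagens tested, 14 rose and 2 fell in wild-type mice, with a median of 0.46, and 9 rose and 3 fell in V338Y mice, with a median of 0.36. The share called was 61.5% and 46.2%, near the 62.8% and 48.8% of all genes. Without mice 17 and 18 the V338Y median was 0.12. Of the collagen VI chains, Col6a2, Col6a3, Col6a5 and Col6a6 rose in both genotypes, while Col6a1 and Col6a4 were not called in either. The Col6a5 call in wild-type mice (1.15, adjusted p = 0.0364) was lost in 7 of 15 alternatives, DESeq2 among them, and that in V338Y mice (0.95) was lost without mice 17 and 18 (0.86, adjusted p = 0.067). Col6a6 had the largest rise in both genotypes, but it passed the count filter only through the 19-month mice. Its 3-month values were low, down to the level of 3 counts in wild-type mouse 11 (0.2659 CPM), so the size of its rise is uncertain. Col6a6 stood at 1.11, 0.529, 0.266 and 0.602 CPM in 3-month and at 3.22, 3.97, 2.92 and 6.25 CPM in 19-month wild-type mice (2.72, SE 0.32). In V338Y mice it stood at 0.574, 0.353, 0.281 and 1.31 CPM, then at 2.62, 2.60, 2.4 and 3.06 CPM (2.06, SE 0.35), again without overlap. Col6a1 did not follow its partner Col6a2, with log2 fold changes of 0.15 (95% interval -0.01 to 0.30) and -0.00 (-0.25 to 0.25) against 0.91 and 0.59 for Col6a2.

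Fibril-associated collagens sit on the surface of fibrils. Col12a1 and Col14a1, members of this class, rose in both genotypes, Col12a1 by 1.2 (SE 0.08) and 1.06 (SE 0.11) and Col14a1 by 1.40 (SE 0.22) and 1.60 (SE 0.17) on the log2 scale. Col15a1, which lies outside the vascular basement membrane and belongs to the multiplexins, rose by 1.09 (SE 0.13) and 1.02 (SE 0.12). The membrane-spanning Col13a1 and Col23a1 were called higher in both genotypes as well, with 1.28 and 0.56 in wild-type and 0.97 and 0.36 in V338Y mice. Both V338Y calls were lost without mice 17 and 18 (adjusted p = 0.0567 and 0.0991), and that of Col23a1 also with GC content and length trends removed (0.0692) and with mouse 14 as the only 3-month mouse (0.136). Col25a1 and Col19a1, which are known from neurons, were called in neither: Col25a1 had 0.02 (95% interval -0.09 to 0.12) and -0.01 (-0.19 to 0.17), and Col19a1 had -0.04 and -0.13. With GC content and length trends removed, both were called lower in wild-type mice, with log2 fold changes of -0.26 and -0.22. The all-gene median of that fit was -0.0902. Col19a1 was also called lower in V338Y mice, with -0.25 against an all-gene median of -0.105. With mouse 14 as the only 3-month mouse, Col25a1 and Col19a1 had -0.33 and -0.37 in V338Y mice, a fit in which 1 arm held a single mouse.

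Col7a1, the chain of the anchoring fibrils under epithelia, showed the largest fall in wild-type mice. It stood at 6.53, 5.49, 5.76 and 6.45 CPM in 3-month and at 2.82, 1.90, 2.92 and 2.87 CPM in 19-month wild-type mice (log2 fold change -1.20, SE 0.18). In V338Y mice it stood at 5.61, 4.28, 3.86 and 4.51 CPM, then at 3.33, 2.13, 2.51 and 2.63 CPM (-0.81, SE 0.17), and the ages did not overlap. Col17a1, a membrane-spanning collagen of cell attachment sites, showed the largest fall in V338Y mice. Its values there were 2.17, 1.36, 3.16 and 2.67 CPM, then 0.706, 1.53, 0.574 and 0.918 CPM (-1.31, SE 0.34), with mouse 14 inside the range of the 19-month mice. With mouse 14 as the only 3-month mouse the log2 fold change was -0.55 (adjusted p = 0.31). In wild-type mice it stood at 1.48, 1.26, 2.13 and 1.98 CPM, then at 1.53, 0.827, 1.19 and 0.676 CPM, and was not called (-0.61, adjusted p = 0.0779). Some alternatives called it lower there, among them the fit without the 3-month mouse 10 (-0.76, adjusted p = 0.0362). Col20a1, a fibril-associated collagen, stood at 5.05, 5.35, 5.67 and 6.88 CPM in 3-month and at 2.90, 4.13, 3.14 and 3.21 CPM in 19-month wild-type mice (-0.76, SE 0.17). In V338Y mice it stood at 4.53, 3.83, 4.57 and 5.58 CPM, then at 3.33, 3.33, 3.65 and 3.67 CPM (-0.40, adjusted p = 0.0399), a call lost in 12 alternatives, among them without mice 17 and 18 (-0.33, adjusted p = 0.212) and with mouse 14 as the only 3-month mouse (-0.13, adjusted p = 0.656).

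Markers of collagen-making cells moved with these results. The 16 endothelial markers were all higher at 19 months in both genotypes and summed to 423 to 459 CPM at 3 months and to 1731 to 1999 CPM at 19 months. The 14 mural cell markers were likewise all higher, with sums of 246 to 296 and 963 to 1180 CPM. Of 20 markers of meningeal and perivascular fibroblasts, 18 rose in wild-type and 16 in V338Y mice, against 31.4% and 23.1% of all genes called higher, with sums of 172 to 236 CPM at 3 months and 481 to 584 CPM at 19 months in wild-type mice, and of 170 to 241 and 400 to 534 CPM in V338Y mice. Markers of other cells moved too: 9 of 10 astrocyte markers rose in each genotype, with sums of 4104 to 4812 CPM at 3 months and 7411 to 8914 CPM at 19 months. All 8 microglia markers rose in both, from 223 to 312 CPM to 489 to 563 CPM. Blood markers summed to 124 to 256 CPM at 3 months and to 384 to 900 CPM at 19 months. The part of these cells in the collagen values was not tested. Mouse 14 had cerebellum markers at the level of the 19-month mice. As a description, all 20 collagens called higher in V338Y mice were higher in all 4 mice of 19 months than in mouse 14. The median difference was 0.88 on the log2 scale, and 4 of the 5 called lower were lower in all 4. Mouse 14 was 1 of the 4 control mice, and the same 19-month mice chose these genes, so such agreement was favored in advance. The share over all called genes was not computed, and the part of cerebellum tissue was not tested.

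Some collagens, singled out after their values were seen, went with single mice. Col18a1, a multiplexin of basement membranes, stood at 25.6, 9.02, 34.5 and 25.8 CPM in the 3-month V338Y mice, with mouse 14 the lowest, and at 19.2, 16, 14.4 and 16.3 CPM in the 19-month V338Y mice. Its log2 fold change between ages in V338Y mice was -0.54 (SE 0.39, not called), -0.81 without mouse 14 (adjusted p = 8.578e-05) and 0.85 with mouse 14 as the only 3-month mouse. In wild-type mice Col18a1 was not called, but some alternatives called it lower at 19 months. Among them were library size only (-0.31, adjusted p = 0.00951) and the fit without the 3-month mouse 9 (-0.27, adjusted p = 0.0174). Col8a1 and Col8a2, the chains of a network-forming collagen of vessels and eye, and Col9a3, a fibril-associated chain, went with the choroid plexus markers. Col8a1 stood at 24.4 and 29.4 CPM in the 19-month V338Y mice 17 and 18 and at 6.47 and 8.57 CPM in mice 19 and 20. Col8a2 stood at 28.4 and 30.4 against 10.5 and 10.1 CPM in these mice, and Col9a3 at 37.4 and 40.0 against 15.3 and 15.3 CPM. Among 19-month wild-type mice, mouse 12 had the highest choroid plexus sum (1841 CPM against 704 to 1081 CPM) and the highest Col8a1, Col8a2 and Col9a3, at 16.3, 18 and 25.1 CPM. In wild-type mice Col8a1 and Col8a2 were called higher at 19 months, by 0.83 and 0.72, and without mouse 12 they kept that call. With all 16 mice in one fit both lost it. The part of choroid plexus tissue in these values was not tested.

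**Figure D3:**
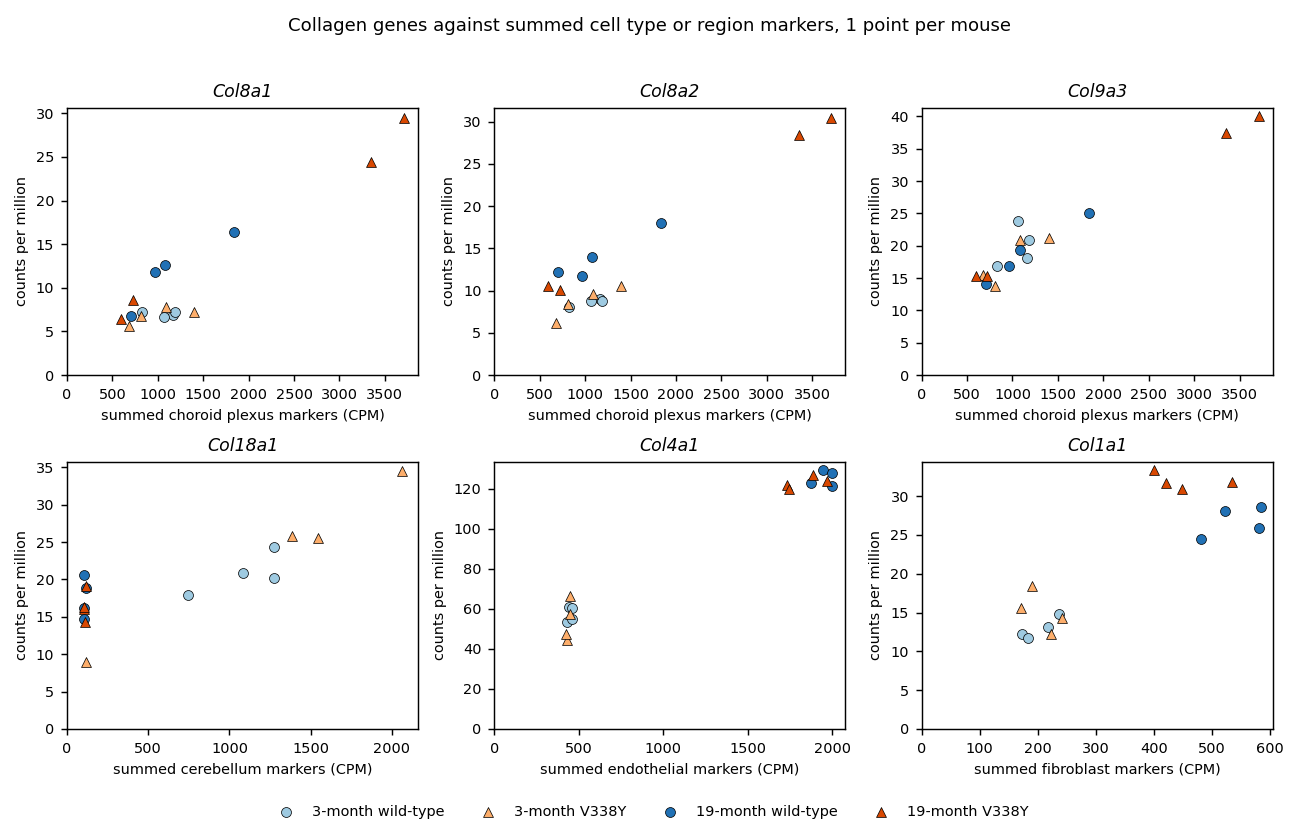
CPM of 6 collagen genes (vertical axes) against the summed CPM of marker genes (horizontal axes), 1 point per mouse in the color of its group. Col8a1, Col8a2 and Col9a3 are highest in the pair of 19-month V338Y mice with choroid plexus sums of 3350 and 3710 CPM, and Col18a1 is lowest in the 3-month V338Y mouse with a cerebellum sum of 114 CPM.

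The second question was whether V338Y mice differed from wild-type mice of the same age. At 19 months 1 of 43 collagens was called, Col1a1, against 3.12% of all genes (1.19% as higher), and 8 had an unadjusted p under 0.05 (16.2% of all genes). The genotypes did not overlap in 2 collagens on the higher side (Col1a1 and Col11a2) and 1 on the lower side (Col9a1), against 4.46% and 4.9% of all genes. Every 19-month V338Y mouse (30.9 to 33.4 CPM) lay above every wild-type mouse (24.5 to 28.6 CPM). The log2 fold change was 0.25 (SE 0.06, adjusted p = 0.026). The call was lost with DESeq2, with all 16 mice in one fit and without any 1 of 4 mice (wild-type 12 and 15, V338Y 19 and 20), and the highest adjusted p under these was 0.32. Col1a2, its partner in collagen I, had a log2 fold change of -0.14 (SE 0.05, adjusted p = 0.15). Of 20 fibroblast markers, 9 were called lower in V338Y mice, against 1.92% of all genes. The part of these cells in the Col1a1 value was not tested. The median log2 fold change was 0.05 over fibrillar, -0.06 over collagen IV and -0.09 over other collagens. Col4a5 (-0.37, SE 0.11) had an adjusted p of 0.0983, and of 0.00517 without mouse 17. Col11a2 (0.20, SE 0.06) had one of 0.0796. At 3 months no collagen of 42 tested was called, with 10 of all 16241 genes called (0.0616%), and 2 collagens, Col5a3 and Col7a1, had an unadjusted p under 0.05 (5.02% of all genes). DESeq2 called none either.

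**Figure D4:**
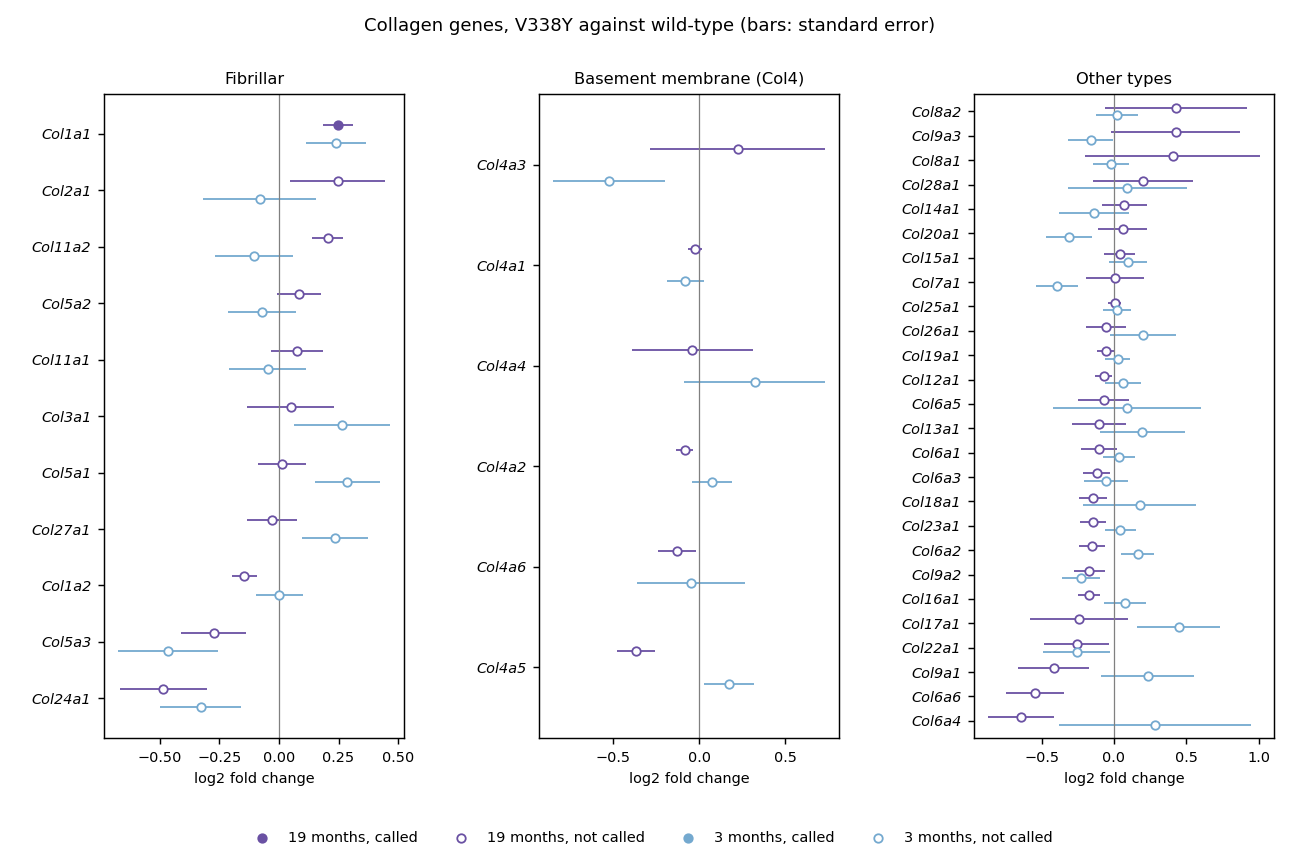
Log2 fold change of collagen genes between V338Y and wild-type mice at 19 months (purple, 43 genes) and 3 months (light blue, 42 genes), in 3 panels by type, with standard errors as bars. The only filled point, for an adjusted p under 0.05, is Col1a1 at 19 months.

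Whether the age effect differed between genotypes was tested with an interaction term over all 16 mice. No collagen was called, against 0.0535% of all genes, 2 had an unadjusted p under 0.05 (Col4a5 and Col6a2, against 10.2% of all genes), and DESeq2 called none. The lowest adjusted p was 0.38, for Col4a5, whose rise was smaller in V338Y mice by 0.52 on the log2 scale (95% interval of the difference -0.90 to -0.14). For Col4a1 the interval was -0.18 to 0.30, for Col1a1 -0.26 to 0.29 and for Col3a1 -0.77 to 0.37. The 8 genes called in one genotype only (Col4a4, Col8a1, Col8a2, Col9a1, Col16a1 and Col26a1 higher in wild-type, Col11a2 higher and Col17a1 lower in V338Y mice) had adjusted interaction p-values of 0.562 or more, so a difference between genotypes was not shown for them. Under some alternatives Col4a4, Col8a1, Col8a2 and Col26a1 were called higher in V338Y mice too. Col11a2 and Col17a1 were likewise called in wild-type mice under some, in the same directions.

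Whether chains of one collagen moved together was read from their ratios. The ratio of 9 pairs of chains was compared in 4 contrasts by exact permutation tests on both sides, pairs chosen after their values were seen. With 4 against 4 mice such a test cannot give a p below 0.0286. No adjusted p (Benjamini-Hochberg) over the 36 tests fell below 0.103. With that lower limit, an adjusted p under 0.05 would have needed many of the 36 tests to reach it. The tests can therefore hardly decide the question, and the ratios are given as a description. The mean log2 ratio of Col1a1 to Col1a2 was -0.77 in 19-month V338Y and -1.17 in 19-month wild-type mice, a difference of 0.39 (exact p = 0.0286, adjusted 0.103). That of Col4a1 to Col4a2 was higher at 19 months by 0.29 in wild-type mice and by 0.49 in V338Y mice (exact p = 0.0286 in each). Col6a1 to Col6a2 fell by 0.75 and 0.58, and Col11a1 to Col11a2 fell by 0.88 and 1.05, with the same exact p. Col5a1 to Col5a2 changed by -0.96 in wild-type and by -1.39 in V338Y mice, again with that exact p. Col9a1 to Col9a2 changed by 1.21 in wild-type mice with that exact p, and by 0.57 in V338Y mice (exact p = 0.0857). The ratio of Col8a1 to Col8a2 moved by 0.02 in both genotypes (exact p = 0.943 and 0.886).

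Genes that build, cross-link, cut and bind collagen were read from 6 lists. Of all genes, 31.4% were called higher and 31.5% lower with age in wild-type mice, and 23.1% and 25.7% in V338Y mice, the background for the counts of these lists. Of 22 genes for chain modification and folding, 18 rose and 2 fell (P3h3 and Sec23a) in wild-type mice, and 19 rose and 2 fell in V338Y mice. Crtap, part of the prolyl 3-hydroxylation complex, rose by 1.26 (SE 0.16) and 1.37 (SE 0.12), P4ha3, a prolyl 4-hydroxylase subunit, rose by 1.71 (SE 0.21) in wild-type mice, and Serpinh1, the collagen chaperone HSP47, rose by 1.15 (SE 0.14) in V338Y mice. For cleavage and cross-linking, 8 of 12 genes rose and 2 fell (Bmp1 and Tll1, procollagen proteases) in wild-type mice, and 7 of 13 rose and the same 2 fell in V338Y mice. Lox, which cross-links collagen, went from 0.529 to 1.36 CPM in 3-month to 3.46 to 5.13 CPM in 19-month wild-type mice (2.43, SE 0.26) and rose by 2.23 (SE 0.21) in V338Y mice. Tgm2, a transglutaminase, rose by 2.06 (SE 0.07) in wild-type, and Loxl4, a lysyl oxidase, by 2.21 (SE 0.42) in V338Y mice.

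Of genes for collagen breakdown and its inhibitors, 10 of 14 rose and 2 fell in wild-type mice (31.4% of all genes were called higher), and 8 of 13 rose and 1 fell in V338Y mice (23.1% of all genes). Mmp8, a collagenase of neutrophils, had 0 counts in every 3-month wild-type mouse and 0.413 to 1.69 CPM at 19 months, so no fold is given. Mmp8 passed the count filter only through the 19-month mice and could only be called higher, yet it is among the 10 that rose. Reck, a membrane-bound protease inhibitor, rose by 1.89 (SE 0.08) and 1.34 (SE 0.10), and Timp1 by 1.31 in V338Y mice (adjusted p = 0.0224). That Timp1 call was lost in 4 alternatives. Among them were the fits without mice 17 and 18 (1.06, adjusted p = 0.138) and with mouse 14 as the only 3-month mouse (1.16). All 8 collagen receptors tested, of 10 listed, rose in both genotypes, Itga1 by 2.27 (SE 0.08) and 2.09 (SE 0.09) and Ddr2 by 1.82 (SE 0.09) and 1.51 (SE 0.15). Of 17 small proteoglycans and other collagen-binding matrix proteins, 16 rose in each genotype, led by Vwf (3.20 and 2.61), a platelet-binding protein of endothelium, and Bgn (2.80 and 2.08), the proteoglycan biglycan. Of 19 basement membrane partners of collagen IV, 18 and 17 rose, led by the laminin chain Lamc3 (2.19 and 1.82) and the proteoglycan Hspg2 (2.09 and 1.82).

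At 19 months, the partner genes called between genotypes were all lower in V338Y mice. They were 8 of 17 small proteoglycans and binding proteins, 4 of 19 basement membrane partners, 2 of 8 receptors and 2 of 14 breakdown genes, against 1.92% of all genes called lower. Omd, the proteoglycan osteomodulin, stood at 6.12, 7.11, 4.55 and 4.73 CPM in wild-type and at 3.63, 2.86, 2.35 and 2.39 CPM in V338Y mice (-1.08, SE 0.18). Fmod, fibromodulin, stood at 42.8, 43.8, 39.3 and 36.7 CPM and at 32.5, 22.4, 25.2 and 24.4 CPM (-0.67, SE 0.09), and was the 1 listed gene with a called interaction (-0.87, adjusted p = 0.0324, lost without any 1 of 11 mice). In both genes the genotypes did not overlap. Ddr2, a receptor for fibrillar collagens, stood at 34.8 to 44.0 CPM in wild-type and at 25.8 to 31.3 CPM in V338Y mice (-0.49, SE 0.07), and Itga1 differed by -0.26 (SE 0.06). Timp3, a matrix-bound protease inhibitor, differed by -0.30 (SE 0.04) and Reck by -0.23 (SE 0.06). Fbln1, Lama4, Lamc3 and Lama2, a fibulin and laminin chains, differed by -0.37, -0.27, -0.24 and -0.20. With all 16 mice in one fit, the calls of all 4, of both receptors and of Reck were lost, with adjusted p-values from 0.103 (Ddr2) to 0.333 (Reck). Over the 17 alternatives run, Reck lost its call in 9, Itga1 in 8, Lamc3 in 7, Lama4 in 5, Lama2 in 4, Fbln1 in 2 and Ddr2 in 1, and Timp3, Omd and Fmod in 0. Dcn, Ogn and Fbln1, like Lum, are also on the fibroblast marker list, of which 9 genes were lower and whose sum was 481 to 584 CPM in wild-type and 400 to 534 CPM in V338Y mice. The mural cell markers were lower as well, at 1067 to 1180 CPM in wild-type and 963 to 1054 CPM in V338Y mice without overlap, with 3 of 14 called lower. The part of those cells was not tested. At 3 months no gene of the 6 lists was called between genotypes.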

How the data were processed

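Brain RNA of 16 mice, 4 a group, was sequenced, and the authors deposited 1 table of estimated counts per gene, as whole numbers of at most 4 significant digits (all 1495 values with more digits end in 0). The submitters' processing notes name bcl2fastq 1.8.4, STAR 2.4.2a, featureCounts and GRCm38, while the study's methods name another counter and build, so the counter is uncertain. Symbols and positions came from GENCODE M21, and promoter windows from RefSeq (GRCm38.p6).

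Genes with 10 or more counts in at least 2 mice of 1 group were tested with edgeR 4.0.16 (R 4.3.3; quasi-likelihood, robust, TMM scaling, Benjamini-Hochberg adjustment over all genes kept, adjusted p under 0.05). Each contrast used its 8 mice and the interaction all 16. Levels are CPM, and a count of 0 allows up to 3 counts, or 0.151 to 0.507 CPM. Col10a1 (0 to 10 counts a mouse, 70 in all) was not tested, and Col6a6 was not tested between genotypes at 3 months. Ratios used a pseudocount of 0.1 CPM. DESeq2 1.42.0 was an alternative. No pair of mice in a group agreed within sampling noise (chi-square per degree of freedom 1.87 to 27.1 over 24 pairs). The fits were tested on simulated data.

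The members and lists were chosen with earlier results of these data known. Values in every mouse were given for Col1a1, Col1a2, Col3a1, Col4a1, Col4a2, collagens called between genotypes, and the 3 largest rises and falls called in each age contrast. Of each partner list the 2 largest changes called in each contrast were named, and all those called between genotypes where these were 6 or fewer. Other genes were named after their values were seen.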

Additional observations from a re-analysis of the deposited data

Results flagged for a closer look

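In 8 of 172 groups of 4 mice the collagen level of 1 mouse lay apart from the other 3 by Dixon's test, which flags about 1 in 20 groups by chance. Among 19-month V338Y mice, Col23a1 stood at 20.28 CPM in mouse 17 and at 14.88 to 15.45 CPM in the others, and Col2a1 at 3.133 CPM in mouse 19 against 2.397 to 2.522 CPM. Among 19-month wild-type mice, Col7a1 stood at 1.902 CPM in mouse 13 against 2.819 to 2.923 CPM. Among 3-month V338Y mice, Col11a1 stood at 21.46 CPM in mouse 14, the mouse with low cerebellum markers, against 12.51 to 13.9 CPM, and Col13a1 at 2.169 CPM in mouse 13 against 1.108 to 1.265 CPM. Among 3-month wild-type mice, Col14a1 stood at 0.975 CPM in mouse 11 against 1.52 to 1.602 CPM, Col19a1 at 29.0 CPM in mouse 12 against 30.58 to 30.81 CPM, and Col9a2 at 14.54 CPM in mouse 9 against 9.895 to 10.58 CPM.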

How the results depend on the processing

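No alternative turned the direction of a called collagen. Of the collagens called with age, 24 of 29 in wild-type and 17 of 25 in V338Y mice stayed called under every alternative run. At an adjusted p under 1e-05, a stricter threshold, 17 were called in wild-type (15 higher, 2 lower, against 26.8% of all genes) and 4 in V338Y mice (all higher, against 4.9%). Leaving out 1 mouse at a time gave 27 to 31 and 23 to 28 collagens, against 58.7 to 62.1% and 42.2 to 51.4% of all genes. Removing GC content and length trends gave 22 higher and 8 lower in wild-type and 18 higher and 8 lower in V338Y mice, in place of 25 and 4, and of 20 and 5, while the higher share of all calls went from 49.9 to 39.2% and from 47.4 to 36.6%. Without mice 17 and 18, chosen after seeing the data, 18 collagens were called with age in V338Y mice (14 higher, 4 lower, against 32.4% of all genes), and with mouse 14 as the only 3-month mouse, also chosen after seeing the data, 25 (18 higher, 7 lower, against 47.2%).

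Between genotypes at 19 months, in place of 1 collagen, 0 were called at an adjusted p under 0.01, with DESeq2 and with all 16 mice in one fit. The shares of all genes called there were 1.44%, 2.36% and 0.731%. By library size only, 2 were called (Col1a1 and Col11a2, against 3.78% of all genes), and with no filter on counts 3 (also Col4a5, against 3.06%). Without mice 17 and 18, 3 were called (Col1a1, Col4a5 and Col24a1, against 3.74% of all genes). Leaving out 1 mouse at a time gave 0 to 2, against 1.78 to 3.73% of all genes. The cause was not tested. At 3 months and for the interaction, 0 were called under every alternative, with 1 to 7 and 1 to 5 at an unadjusted p under 0.05 when 1 mouse was left out. No paired analysis was possible because each mouse had 1 genotype and, by the study's methods, was killed at 1 age. The mouse number 12 stands in both wild-type groups. At the depth of these libraries, collagens near 1 CPM rest on few counts.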
